A study of Mus musculus with 26 samples.

Results

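The genes described here are 89 cell cycle and DNA replication genes, 1 probe each, on an expression array of 10500 probes. They were taken by gene symbol: cyclins A, B, D and E, cyclin-dependent kinases, the Cdc genes, Mcm and Orc genes, centromere (Cenp), Bub, Aurora, polo-like and Mad2 genes, and Top2a, Mki67, Pcna, Tyms, Rrm1 and Rrm2. Symbols beginning with Cdk or Cdc also take in kinases of transcription or of neurons and partners of the GTPase Cdc42, which are named for the family and not for a role in division. Among these genes, 79 reached the brightness needed for a test in at least 1 group of arrays, and 10 did not. Ccnb1 was not matched to a probe and was not analysed here.

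The series profiled 5 exocrine glands of BALB/c mice of both sexes on 26 arrays: the submandibular, sublingual and parotid salivary glands, the lacrimal (tear) gland, and the meibomian gland, an oil gland of the eyelid. Each array held the RNA of 10 glands pooled from 5 animals. The submandibular, lacrimal and meibomian glands had 3 pools a sex, lettered A, B and C, and the sublingual and parotid glands had 2, A and B. The labels name no treatment, and the age of the mice was not given in the sources used here. A p-value therefore measures the spread between pools, not between single mice.

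A dividing cell passes through ordered steps. Growth signals raise D-type cyclins, which act with Cdk4 and Cdk6, and then E-type cyclins, which act with Cdk2. The origin recognition complex (Orc) and Cdc6 load the ring of Mcm2 to Mcm7 onto DNA, Cdc45 completes the helicase that unwinds it, Pcna clamps the polymerase, and ribonucleotide reductase (Rrm1, Rrm2) and thymidylate synthase (Tyms) supply nucleotides. Cyclins A2, B1 and B2 with Cdk1, the Aurora and Plk1 kinases, the centromere proteins and the spindle checkpoint (Bub1, Bub1b, Mad2l1) then drive mitosis, which Cdc20 ends by activating the anaphase-promoting complex. Mki67 coats mitotic chromosomes and Top2a untangles their DNA, and both serve as marks of dividing cells. In oil glands the secretory cells burst to release their product and are replaced by division of basal cells, whereas salivary and lacrimal acinar cells secrete without being lost.

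Values were scaled intensities, linear and with a background subtracted, on a scale where the median probe of each array lay between 0.928 and 0.955. A level below is such an intensity, or the geometric mean of several, and a difference is on the log2 scale. In limma, each gland was set against the average of the remaining 4, both sexes weighted equally. A gene was called higher or lower where its adjusted p was under 0.05 and its difference at least 1. A group whose arrays all lay below the 30th percentile of their own array is called dim, and a fold against it is printed as "at least". In pooled tissue, fewer cells of a type and less RNA per cell cannot be told apart.

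The meibomian label fitted its markers. Summed keratinocyte markers were 53.8 to 129 in the meibomian pools and at most 6.94 in any other, and summed meibocyte (oil cell) markers were 385 to 513 there and at most 61.9 elsewhere. Summed serous and duct products were 5.09 to 7.29 in the meibomian pools and at least 259 in every other pool. The summed list for mucous cells was 36.4 to 58.8 in sublingual pools and 282 to 464 in lacrimal pools, so that list did not mark the sublingual gland. Skeletal muscle markers summed to 125 to 232 in meibomian and 38.0 to 143 in parotid pools, and to at most 18.7 elsewhere. The arrays also fell into 2 sets by their values, which the labels do not name: a set of 10 (pool B of the submandibular and lacrimal glands and pool A of the sublingual, parotid and meibomian glands, in both sexes) and a set of 16. Both sets hold every gland and both sexes of each gland, so gland differences could be taken within each.

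A single library stood apart in these genes. Male lacrimal pool B was the highest of the 6 lacrimal pools, and at least 2-fold above the next, in 21 of 78 genes with a value on all 6, against 295 of 7920 probes over the array (3.72%). On each of the other 25 arrays this held for 0 or 1 of these genes. Many counts and values that rest on that pool are given with and without it. The levels of glands, their order and most paired counts are given with it alone.

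The genes of mitosis set the meibomian gland apart from the others. Taken as a deviation from each gene's mean over the arrays, the median of the 26 tested mitosis genes was 0.458 to 0.791 across the meibomian pools. It was -0.714 to -0.336 in the parotid pools, -0.718 to -0.042 in the sublingual pools and -0.566 to -0.010 in the submandibular pools. Lacrimal pools ranged from -0.497 to 0.108, apart from male pool B at 1.567. Of the 26 genes, Aurka, Aurkb, Bub1b, Cenph and Cenpu were bright enough for a test through meibomian arrays alone. These medians can therefore lean to that gland, and medians over all mitosis genes are not given here.

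**Figure D1:**
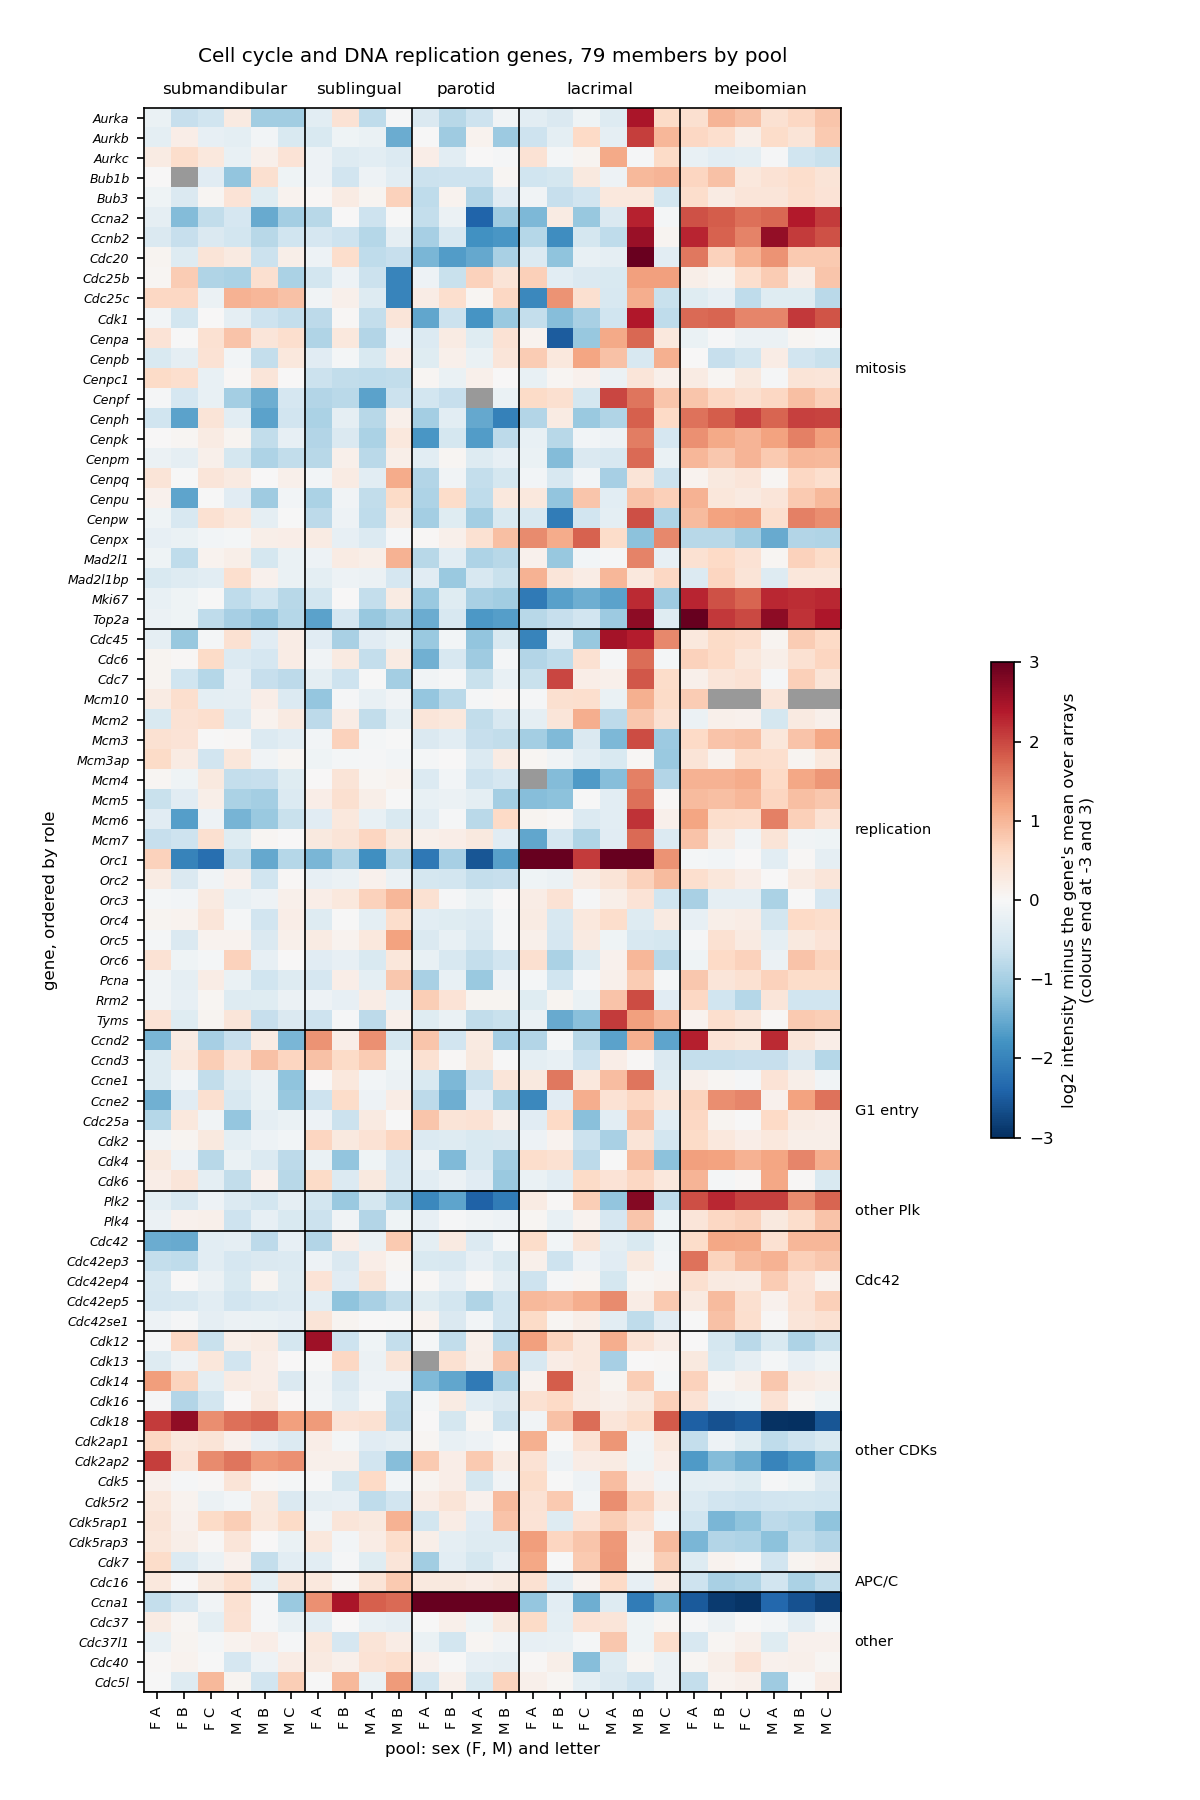
Log2 scaled intensity of the 79 tested genes minus each gene's mean over the 26 arrays, genes in rows grouped by role and pools in columns grouped by gland (F female, M male, with the pool letter). The mitosis rows are raised in the 6 meibomian columns and in male lacrimal pool B, whose median deviation over the mitosis genes was 1.567.

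Promoters of some of the genes named in these results are shown. Mitosis and replication genes are known to be switched on through shared short motifs near their start. The tall peaks of expression in mitosis are linked to CCAAT boxes together with TTTGAA, the cell cycle homology region, and S phase genes to E2F sites. The sequences are the 250 bases before the start of the gene in RefSeq, mouse build GRCm38.p6, 5′ to 3′ on the gene's strand, and 80 of the 89 genes had one. Capitals mark matches on either strand to CCAAT, to TTTGAA, and to 4 E2F words (TTTCCCGC, TTTGGCGC, TTTCGCGC and TTTGCCGC); matches that overlap form 1 capital run. The 5 mitosis genes come first: Ccnb2 at chr9:70421555-70421804 (minus strand), Cdk1 at chr10:69352913-69353162 (minus), Top2a at chr11:99024190-99024439 (minus), Mki67 at chr7:135716380-135716629 (minus) and Cdc20 at chr4:118437344-118437593 (minus). Mcm5 at chr8:75109259-75109508 (plus) and Mcm6 at chr1:128359706-128359955 (minus) follow as replication genes.
Ccnb2: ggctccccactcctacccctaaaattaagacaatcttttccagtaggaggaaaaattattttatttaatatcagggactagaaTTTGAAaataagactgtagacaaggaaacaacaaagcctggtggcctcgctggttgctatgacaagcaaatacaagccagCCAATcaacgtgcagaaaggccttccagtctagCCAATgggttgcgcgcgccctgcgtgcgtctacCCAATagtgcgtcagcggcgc
Cdk1: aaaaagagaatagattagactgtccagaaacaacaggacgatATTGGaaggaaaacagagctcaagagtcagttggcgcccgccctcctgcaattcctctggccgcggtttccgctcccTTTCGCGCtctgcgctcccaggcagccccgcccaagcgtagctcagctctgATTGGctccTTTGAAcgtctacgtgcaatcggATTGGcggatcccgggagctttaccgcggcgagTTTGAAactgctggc
Top2a: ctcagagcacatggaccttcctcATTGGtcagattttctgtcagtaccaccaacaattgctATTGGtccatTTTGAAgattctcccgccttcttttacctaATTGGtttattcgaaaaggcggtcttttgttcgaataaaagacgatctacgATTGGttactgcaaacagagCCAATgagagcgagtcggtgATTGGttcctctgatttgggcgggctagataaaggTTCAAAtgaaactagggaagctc
Mki67: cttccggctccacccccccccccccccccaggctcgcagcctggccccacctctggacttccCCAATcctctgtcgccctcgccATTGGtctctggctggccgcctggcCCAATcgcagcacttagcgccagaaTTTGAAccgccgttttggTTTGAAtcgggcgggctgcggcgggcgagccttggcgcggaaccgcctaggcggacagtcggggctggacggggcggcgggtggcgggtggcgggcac
Cdc20: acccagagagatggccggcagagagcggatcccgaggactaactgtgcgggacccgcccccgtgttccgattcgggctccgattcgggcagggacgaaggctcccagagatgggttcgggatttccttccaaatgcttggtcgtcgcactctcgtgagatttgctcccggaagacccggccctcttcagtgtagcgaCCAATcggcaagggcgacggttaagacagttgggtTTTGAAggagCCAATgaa
Mcm5: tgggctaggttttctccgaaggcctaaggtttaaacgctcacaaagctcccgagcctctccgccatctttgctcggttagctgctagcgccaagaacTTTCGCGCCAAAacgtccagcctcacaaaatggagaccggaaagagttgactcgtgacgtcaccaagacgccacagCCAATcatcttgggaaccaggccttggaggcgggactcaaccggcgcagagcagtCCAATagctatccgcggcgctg
Mcm6: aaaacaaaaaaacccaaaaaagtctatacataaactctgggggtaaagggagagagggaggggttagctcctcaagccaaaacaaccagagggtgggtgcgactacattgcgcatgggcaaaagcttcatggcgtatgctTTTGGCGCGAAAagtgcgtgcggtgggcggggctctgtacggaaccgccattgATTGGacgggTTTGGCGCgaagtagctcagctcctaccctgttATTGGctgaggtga

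Ccnb2 has CCAAT at 87 to 83, 54 to 50 and 21 to 17 bases before its start. Top2a has 6 matches to CCAAT, counting both strands, and Mki67 and Cdk1 have 3 each. At least 2 CCAAT matches together with a TTTGAA match were found in 6 of 26 mitosis promoters (23.1%), in 0 of 21 replication promoters, and in 439 of 27025 promoters of all genes (1.62%). All the mitosis promoters shown are among those 6, the other being Bub3, so they are not typical of the mitosis list. An E2F word was found in 6 of 21 replication promoters (28.6%), 3 of 26 mitosis promoters (11.5%) and 517 of all (1.91%). Mcm5 and Mcm6 are among the replication promoters with an E2F word. Promoters of Cenph, Mad2l1 and Tyms, not shown, had no match to any of the motifs. These are counts of letters, not of bound sites, and no array here measured binding.

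Proliferation genes were highest in the meibomian gland. Against the mean of the other 4 glands, 20 of the 79 tested genes were higher and 7 lower, where 17.0% of all tested probes were higher and 20.9% lower. Of the tested genes, 9 reached the required brightness through meibomian arrays alone (Aurka, Aurkb, Bub1b, Ccne2, Cdc7, Cdk6, Cenph, Cenpu and Mcm6, of which Cenph, Ccne2 and Mcm6 were called higher), so the fit of all 89 genes with no filter is the fairer count: 20 higher and 8 lower, against 13.5% and 28.0% of all probes. The median difference of the 79 genes was 0.475, against -0.0878 for all tested probes.

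Of the 20 genes that rose 10 were mitosis genes. Without the filter 10 of 29 were higher and 1 lower, and with it 10 of 26, with a median difference of 0.782. That median includes the mitosis genes that passed the filter through meibomian arrays alone. Of the 20 replication genes tested 4 were higher (20%, near the 17.0% of all probes) and none lower (median 0.535). Mcm6, 1 of the 4, and Cdc7 passed the filter through meibomian arrays alone. Of the 20 differences 18 were positive, against 3827 of 8210 over all tested probes. Of 8 genes of G1 entry 3 were higher (37.5%). Of the 12 tested genes with other Cdk symbols, which include Cdk7 and partners of Cdk2, 0 were higher and 4 lower (33.3%, against 20.9% of all probes). Their median was -0.657.

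Mki67, the proliferation antigen, had a lowest level of 7.99, a median of 11.1 and a highest of 11.6 over the 6 meibomian pools. Over the other 20 arrays its lowest was 0.540, its median 1.42 and its highest 11.2, the last in male lacrimal pool B. All meibomian pools lay above all other arrays but that one, and the difference was 2.74 ± 0.34 (SE; adjusted p = 6.17e-07). In order of level, the meibomian gland (10.2) differed from the sublingual gland next to it (1.99; adjusted p = 0.000271), and the neighbours among sublingual, submandibular (1.76), parotid (1.30) and lacrimal (1.23) did not differ beyond their spread.

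Top2a, the DNA topoisomerase of chromosome condensation, was 3.91, 4.88 and 7.98 (lowest, median, highest) in meibomian pools and 0.298, 0.550 and 6.36 on the other arrays. The groups overlapped through male lacrimal pool B alone. The meibomian level was at least 9.03-fold that of the others (difference 3.20 ± 0.34, adjusted p = 8.01e-08). Its next gland was the lacrimal at 0.896 (adjusted p of the step 3.19e-05), and no other neighbours differed. That lacrimal level includes male pool B at 6.36, where the other lacrimal pools lay at 0.465 to 0.767.

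The partners that start mitosis moved with it. Cyclin B2 (Ccnb2) was 2.03, 2.88 and 4.46 in meibomian pools against 0.199, 0.475 and 4.34 elsewhere, a difference of 2.69 ± 0.31 (adjusted p = 1.95e-07). Cyclin A2 (Ccna2) was 2.14, 2.51 and 3.57 against 0.130, 0.432 and 3.39, a difference of 2.54 ± 0.32 and at least 5.43-fold. Their kinase Cdk1 was 4.62, 5.58 and 7.28 against 0.491, 1.05 and 8.89, a difference of 2.29 ± 0.32. In all of these the overlap with the other glands came from male lacrimal pool B.

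Cdc20, which triggers anaphase, was 1.03, 1.22 and 1.94 in meibomian pools against 0.199, 0.502 and 4.99 elsewhere (difference 1.44 ± 0.33, adjusted p = 0.000759). Among the centromere proteins Cenph, which passed the filter through meibomian arrays alone, was at 1.21, 1.48 and 1.63 against 0.0961, 0.238 and 1.36 (difference 2.50 ± 0.32, at least 4.55-fold). Cenpk, Cenpw and Cenpm were also higher, with differences of 1.70, 1.51 and 1.21. Cenpx, a small centromere and DNA repair protein, was the one mitosis gene called lower (-1.27), although its meibomian pools were dim and quantile normalization took its adjusted p to 0.0527.

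Several mitosis genes named for the checkpoint and its kinases did not reach a difference of 1. Aurka (Aurora A) had a difference of 0.95, Bub1b of 0.73, Aurkb of 0.72 and Mad2l1 of 0.61, with adjusted p-values of 0.00513 to 0.0242. Cenpa, the centromeric histone, differed by -0.08 (adjusted p = 0.818). Without male lacrimal pool B, Aurka was called as well, which gave 21 genes higher (17.0% of probes), 11 of them in mitosis.

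**Figure D2:**
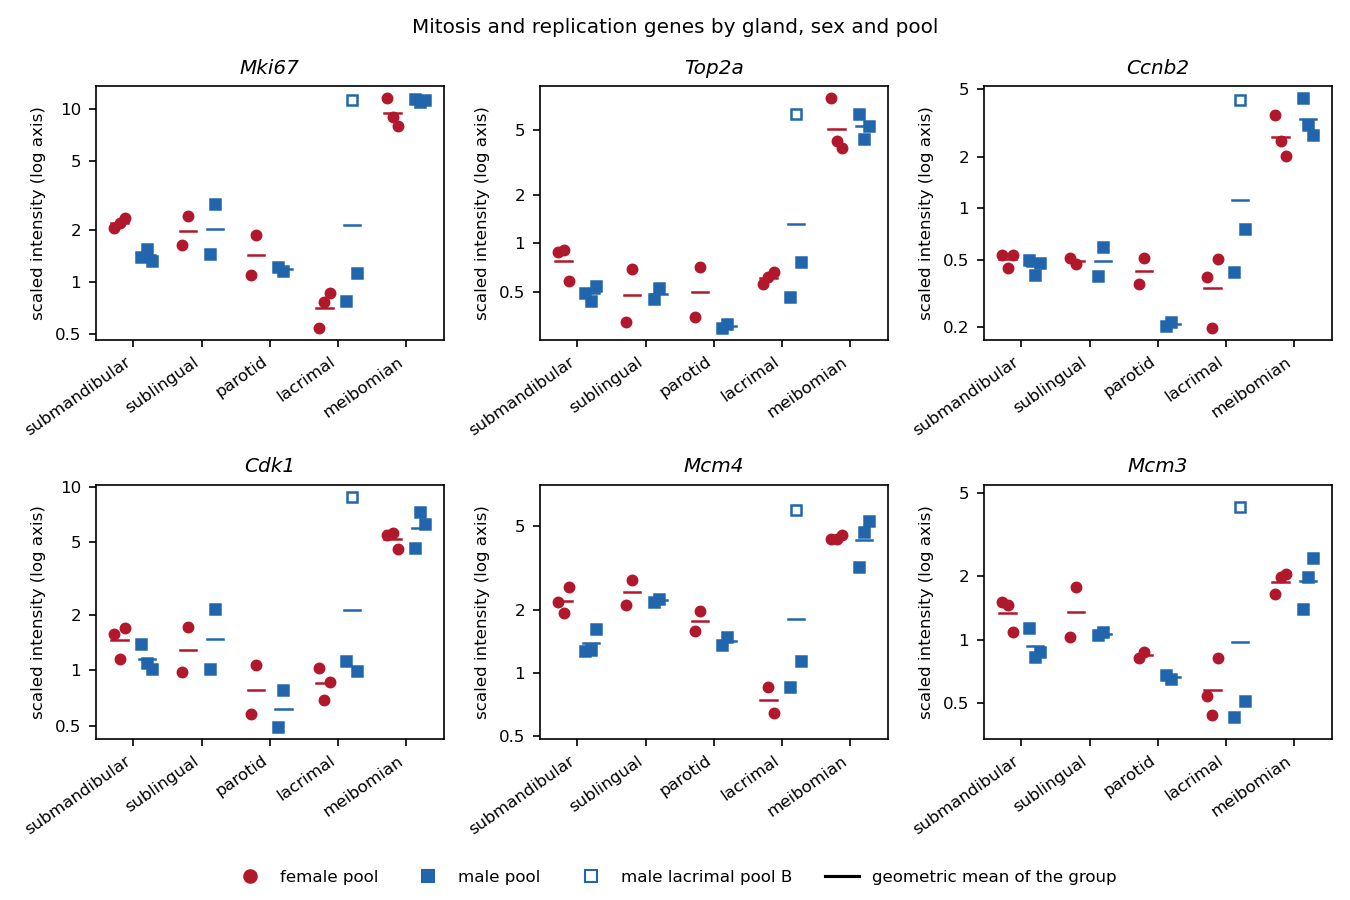
Scaled intensity on a log axis of genes of dividing cells in each of the 26 pools by gland, 1 point a pool, with the sexes marked. The 6 meibomian points of Mki67 lie at 7.99 to 11.6, and male lacrimal pool B at 11.2 stands among them while the other lacrimal pools lie at 0.540 to 1.13.

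Among replication genes the helicase subunits were uneven. Mcm4 was 3.20, 4.445 and 5.25 in meibomian pools against 0.643, 1.62 and 5.94 elsewhere, a difference of 1.40 ± 0.26 (adjusted p = 0.000101; its spot was missing in female lacrimal pool A). Mcm5 (1.11 ± 0.23), Mcm6 (1.04 ± 0.30) and Mcm3 (1.01 ± 0.31) were also called, while Mcm7 differed by 0.21 (adjusted p = 0.485) and Mcm2 by 0.05 (adjusted p = 0.870). The 6 proteins form a single ring, but their probes did not share 1 pattern here.

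The clamp Pcna was 23.4 to 31.8 in meibomian pools and 8.38 to 32.1 on other arrays, a difference of 0.76 ± 0.18 (adjusted p = 0.00119) that fell short of a call. The loader Cdc6 differed by 0.67, Cdc45 by 0.69 and Tyms by 0.60, each with an adjusted p under the threshold and a difference under 1. Rrm2, the regulated subunit of ribonucleotide reductase, had a difference of -0.37 (adjusted p = 0.189). The replication genes were highest in the meibomian gland in 11 of 20 cases, but only 1 of those 11, Mcm4, differed from the gland next to it, whereas 10 of the 19 mitosis genes highest there did.

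In the G1 group the kinase Cdk4 carried the difference. Its meibomian pools were 8.51, 9.54 and 11.5 (lowest, median, highest) and the other arrays 1.65, 3.35 and 8.05, so the groups did not overlap (difference 1.61 ± 0.26, adjusted p = 2.02e-05). Cyclin E2 (1.42) and cyclin D2 (1.19, adjusted p = 0.0228) were higher too. Cyclin D3, a partner of Cdk4, was 0.527 to 0.702 in meibomian pools and 0.620 to 1.75 elsewhere (difference -0.92, short of a call). The other G1 kinases Cdk6 (0.40) and Cdk2 (0.36) and cyclin E1 (0.18), a partner of Cdk2, were not called.

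Plk2, a polo-like kinase induced by stress and growth signals, was 3.72, 5.57 and 6.75 in meibomian pools against 0.259, 0.970 and 9.41 elsewhere (difference 2.62 ± 0.345, adjusted p = 1.29e-06). Cdc42, a GTPase of cell shape, differed by 1.12 and its effector Cdc42ep3 by 1.26. For Cdc42ep3 every meibomian pool (1.37 to 2.66) lay above every other array (0.504 to 1.05).

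Of the 7 genes lower in the meibomian gland, 4 were from the list of other Cdk symbols, and the others were Ccna1, Cenpx and Cdc16. Cyclin A1 (Ccna1), the A-type cyclin known from male germ cells, was 0.196, 0.230 and 0.294 there against 0.347, 1.43 and 33.6 elsewhere, at least 11.7-fold lower (difference -3.87 ± 0.24, adjusted p = 1.34e-11). Cdk18, a kinase with little known part in division, was 0.185, 0.259 and 0.285 against 0.905, 2.57 and 9.85 (difference -3.38 ± 0.26, at least 8.57-fold lower). Neither gene's meibomian pools overlapped the other arrays.

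Cdk2ap2 (-1.98), Cdk5rap1 (-1.29), Cdk5rap3 (-1.26) and Cdc16 (-1.04) were lower as well. Cdc16 belongs to the anaphase-promoting complex; the other 3 are named as partners of Cdk2 or Cdk5. In array set 1 alone the difference of Cdk5rap1 was -0.67, under the size needed for a call.

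Across the 6 pools, 2 genes had all meibomian values above all other arrays (Cdk4 and Cdc42ep3), where 9.89% of probes did, and 5 had all below (Ccna1, Cdk18, Cdk5rap1, Cdk5rap3 and Cdc16), where 9.84% did. Leaving out male lacrimal pool B raised the first number to 16, where 11.1% of probes did: Mki67, Top2a, Ccna2, Ccnb2, Cdk1, Cdc20, Cenph, Cenpk, Cenpm, Cenpw, Mcm4, Mcm5, Plk2 and Plk4 joined. The second became 6, with Cenpx, where 10.8% did. The meibomian calls were 20 higher and 7 lower in female arrays alone, where 17.1% and 20.5% of all probes were, and 15 and 7 in male arrays alone (16.1% and 19.5%). They were 15 and 6 in array set 1 alone (16.4% and 17.5%) and 20 and 7 in set 2 alone (16.9% and 23.6%).

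Paired comparisons gave the same picture for mitosis genes. Of 26, the meibomian gland was higher in 13 against the submandibular, 13 against the sublingual and 14 against the parotid gland. Against the lacrimal gland, with male lacrimal pool B included, it was higher in 9. Of all 79 genes it was higher in 22, 17, 29 and 17, where 17.1%, 16.9%, 20.0% and 16.5% of all probes were. Between any pair of the other 4 glands at most 6 mitosis genes were called. These 6 were lower in the parotid than in the lacrimal gland, where 14.5% of all probes were, and without male lacrimal pool B that number was 2.

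Other cell types moved with the meibomian result. Of their measured markers, 4 of 5 for keratinocytes, 6 of 7 for meibocytes, 7 of 7 for skeletal muscle, 4 of 4 for fibroblasts and 2 of 2 for melanocytes were higher in the meibomian gland. All 6 serous and duct markers and 6 of 7 lymphocyte markers were lower. Their part in the levels of cell cycle genes was not tested.

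Cell cycle genes outside the symbol rule were taken from a separate list. Of 75 tested genes, 28 were higher in the meibomian gland and 2 lower, where 17.0% and 20.9% of all probes were, with 18 of 26 mitosis genes and 4 of 26 replication genes higher. The tested genes passed the same brightness filter, which a gene bright in the meibomian gland alone can pass. No count without the filter is given for them, so these counts may lean to that gland. Without male lacrimal pool B the counts were 32 and 2 (17.0% and 21.4% of probes), and in array set 1 alone 17 and 3 of 74 (16.4% and 17.5%). Birc5 (survivin) was 5.71 to 8.38 in meibomian pools and at most 2.77 elsewhere outside male lacrimal pool B (9.09), a difference of 2.52 ± 0.35. Ttk, the Mps1 checkpoint kinase, was 1.23 to 2.24 against at most 1.06 on any other array, at least 4.93-fold higher. It passed the filter through meibomian arrays alone.

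Inhibitors of the cycle were high in the same gland. Cdkn1a (p21) was 16.0, 6.98 and 6.88 in female and 18.2, 7.58 and 7.85 in male meibomian pools and 0.164 to 2.36 on all other arrays, a difference of 4.52 ± 0.43 (adjusted p = 1.24e-08). Cdkn3 (2.52), Cdkn1c (2.34) and Cdkn2c (1.83) were higher too, so 4 of 5 tested inhibitors were. Foxm1, a transcription factor of mitosis genes, ran the other way (-4.33): its probe lay at 0.614 to 0.724 in meibomian pools and 79.5 to 229 in parotid pools. A probe at its highest where Mki67, Top2a and Ccnb2 are low does not follow the genes Foxm1 is known to drive, and the probe's sequence was not used here.

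**Figure D3:**
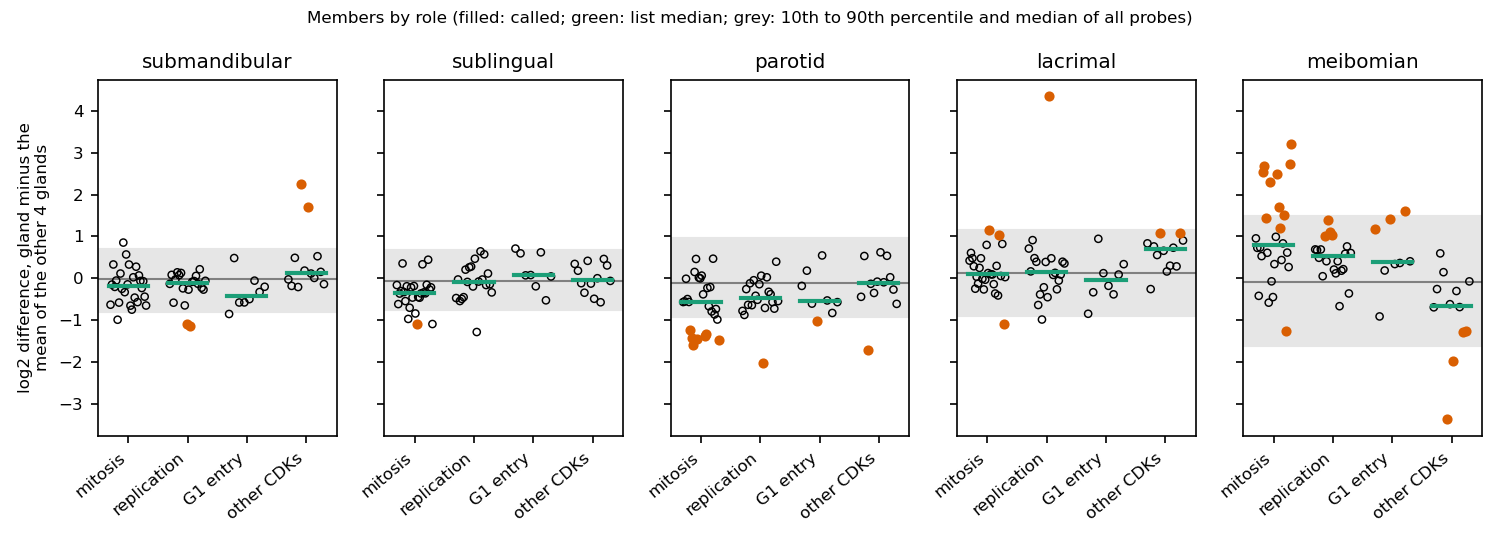
Log2 difference of each gland from the mean of the other 4 for the tested genes of 4 roles, 1 point a gene (filled where called), with the median of the role as a green bar and the median and 10th to 90th percentile of all tested probes in grey. The mitosis median is 0.782 in the meibomian panel and -0.57 in the parotid panel.

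The parotid gland held the largest single difference of these genes, in Ccna1, and otherwise many of the lowest levels. Against the mean of the other glands, 1 gene was higher (8.94% of all probes were) and 11 were lower (8.12%), with a median of -0.384 over the 79 genes and -0.128 over all tested probes. The parotid gland was the lowest of the 5 for 13 of 26 mitosis genes and 11 of 20 replication genes. It also had the most dim genes: 17 of the 79 in each sex, against 1 to 9 in the groups of the other glands. A group is dim only where all its pools are, which is easier with fewer pools. The sublingual groups, with as many pools as the parotid ones, had 7 (female) and 9 (male). Of the 79 genes, 9 passed the filter through meibomian arrays alone, which favours dim groups in the other glands. Shares of all probes that were lowest or dim in the parotid gland are not given here, so these counts have no background to set beside them.

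Ccna1 was the gene that was higher. Its parotid pools were 31.5 and 29.8 in females and 32.6 and 33.6 in males, while the other 22 arrays ran from 0.196 to 8.12. No array overlapped, and the level was at least 30.2-fold that of the other glands (difference 4.998 ± 0.27, adjusted p = 1.45e-11). Every step of its order differed: parotid 31.9, sublingual 5.30, submandibular 1.19, lacrimal 0.674 and meibomian 0.233, with adjusted p-values of 1.73e-05, 7.76e-05, 0.0322 and 0.000126. The 3 salivary glands were thus the 3 highest, and Ccna2, the cyclin A of ordinary dividing cells, was lower in the parotid gland (-1.24 ± 0.37, adjusted p = 0.0132).

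Of the 11 lower genes 7 belonged to mitosis: Cdc20 (-1.60), Top2a (-1.47), Cdk1 (-1.46), Ccnb2 (-1.43), Cenph (-1.39), Cenpk (-1.34) and Ccna2. These comparisons share the meibomian gland's high values in their mean. With the meibomian gland left out, 8.16% of probes were higher and 6.57% lower, and the parotid gland had 1 gene higher, Ccna1 (4.30), and 5 lower, 1 of them in mitosis. The 5 were Orc1 (-2.14), Plk2 (-1.74), Cdk14 (-1.67), Cdc20 (-1.32) and Cdk18 (-1.28), and Top2a was then at -0.72 with an adjusted p of 0.211. The mean for Orc1 takes in lacrimal pools at 0.968 to 11.9. Its parotid pools were 0.0639 to 0.189, near sublingual (0.106 to 0.212) and submandibular pools (0.0783 to 0.607). With the meibomian gland in the mean, Orc1 lost its parotid call in female arrays alone (-1.94, adjusted p = 0.102).

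Plk2 was 0.368 and 0.466 in female and 0.259 and 0.326 in male parotid pools, below all other arrays (0.615 to 9.41). Cdk14, a kinase of Wnt signalling at the membrane, was 0.222, 0.189, 0.128 and 0.282, also below all others (0.410 to 1.96). Both were dim there, so the folds were at least 4.43 and at least 1.87. These were the 2 genes with no overlap below, where 1.66% of probes had none, and Ccna1 was the 1 above, where 4.12% had none.

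Top2a's call in the parotid gland was lost without female parotid pool A (-1.22, adjusted p = 0.067) and in female, male or set 1 arrays alone (-1.06, -1.89 and -2.07, adjusted p = 0.0625 to 0.0795). In female arrays alone 1 gene was higher and 6 lower in the parotid gland, where 7.50% and 6.69% of probes were. Adipocyte markers summed to 86.8 to 294 in the parotid pools, against 56.0 to 122 in the submandibular, 33.6 to 62.2 in the sublingual, 3.08 to 19.1 in the lacrimal and 12.5 to 28.1 in the meibomian pools. Skeletal muscle markers summed to 38.0 to 143 in the parotid and 125 to 232 in the meibomian pools, and to at most 18.7 in the others. Lymphocyte markers summed to 10.9 to 34.4 in the parotid, 11.1 to 34.9 in the submandibular and 24.6 to 47.9 in the sublingual pools. Their part in the parotid levels was not tested.

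**Figure D4:**
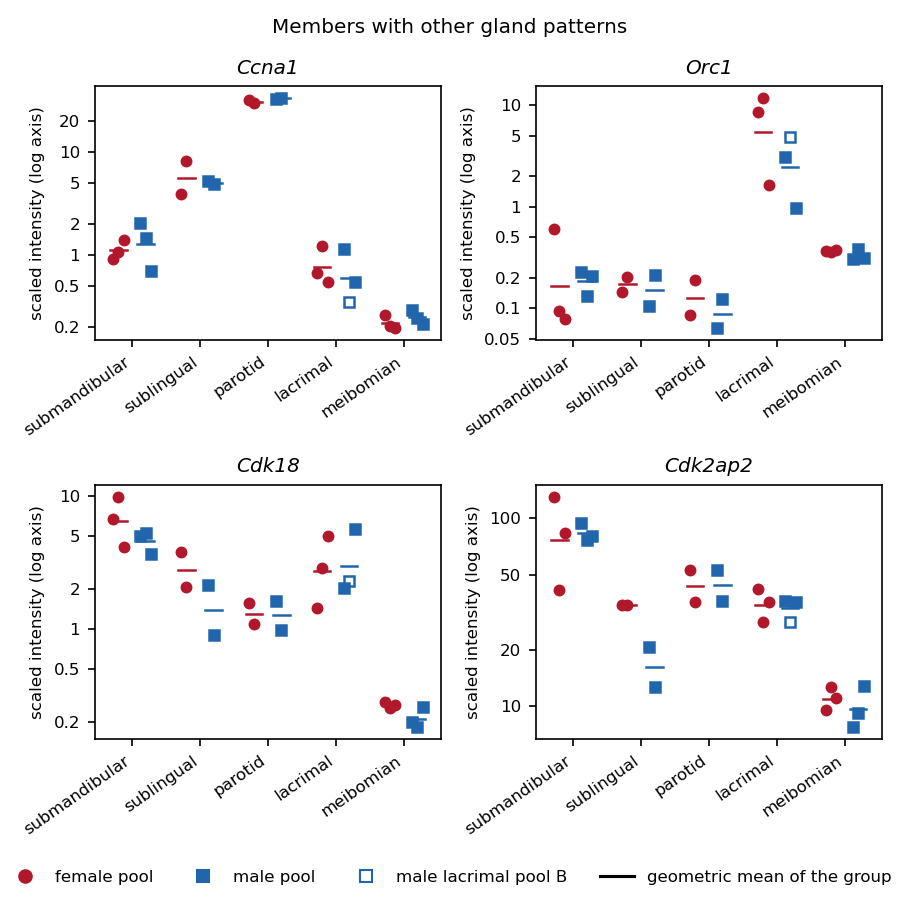
Scaled intensity on a log axis of genes restricted to or highest in 1 gland, 1 point a pool, by gland and sex. Parotid pools of Ccna1 lie at 29.8 to 33.6 and lacrimal pools of Orc1 at 0.968 to 11.9, each with no overlap with the other glands.

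The lacrimal gland was marked by Orc1, the largest subunit of the origin recognition complex. Orc1 was 8.60, 11.9 and 1.62 in female lacrimal pools A, B and C, and 3.08, 4.89 and 0.968 in male pools A, B and C. On the other 20 arrays it was 0.0639 to 0.607. All 6 pools lay above all other arrays, which held for this gene alone where 3.15% of probes did so, and the level was at least 11.8-fold that of the other glands (difference 4.35 ± 0.41, adjusted p = 3.58e-08). The sexes were alike in the letters, with pool B highest and pool C lowest. No gene had all lacrimal pools below every other array, where 1.16% of probes did.

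In the order of levels Orc1 fell from 3.66 in the lacrimal gland to 0.349 in the meibomian gland (adjusted p of the step 9.38e-06), and no further neighbours differed. Orc2 was highest in the lacrimal gland at 0.572, with the meibomian gland at 0.550 (adjusted p = 0.783). The Mcm subunits, loaded on the same origins, had no common order: in the lacrimal gland Mcm2 was at its highest of the 5 glands (0.423), as were Cdc45 and Cdc7, while Mcm4 (1.16) and Mcm7 (0.711) were at their lowest. None of these 5 differed there from the gland next in order (adjusted p = 0.345 for Mcm4 and 0.756 for Mcm7). The lacrimal level of Cdc45 averages male pools at 1.88 to 3.92 and female pools at 0.174 to 0.586.

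In all, 6 of 79 genes were higher in the lacrimal gland, where 11.6% of probes were, and 2 lower, where 8.57% were. The others that were higher were Cdc42ep5 (1.25), Cenpf (1.16), Cdk18 (1.08), Cdk5rap3 (1.07) and Cenpx (1.03). Cenpx passed the filter through lacrimal arrays alone, and with no filter 8 of 89 genes were higher and 2 lower, where 21.9% and 6.70% of probes were. Ccna1 (-1.96) and Mki67 (-1.09, adjusted p = 0.0121) were lower. Under quantile normalization the median of all probes in this comparison moved from 0.124 to -0.0568, and calls over the array from 955 higher and 704 lower to 717 and 1127. The genes here then gave 3 higher and 2 lower.

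Male lacrimal pool B changed these counts. Without it 8 genes were higher, where 14.0% of probes were, with Cdk7 (1.06) and Cenpb (1.04) joining. The lower genes were 5, where 9.23% of probes were lower: Ccna1 (-1.76), Mki67 (-1.68), Mcm4 (-1.42), Ccnd2 (-1.29) and Mcm3 (-1.17). The lower level of Mki67 was lost without female pool A (-0.99), male pool A (-0.72, adjusted p = 0.0743) or male pool C (-0.85, adjusted p = 0.0587), and in array set 1 alone, where male pool B is 1 of the 2 lacrimal arrays, it was 0.24 (adjusted p = 0.837).

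Several lacrimal calls lay close to the threshold of 1. Cdk18 lost its call without male sublingual pool B (0.9986), female lacrimal pool C (0.86) or male lacrimal pool C (0.85). Cdk5rap3 lost its call without female pool A (0.99) or male pool A (0.95). In female arrays alone neither Cenpf (0.44, adjusted p = 0.173) nor Cdk18 (0.79, adjusted p = 0.110) was called higher. In male arrays alone, which include male pool B, Mki67 was not called lower (-0.21, adjusted p = 0.819). With the meibomian gland left out of the mean, the calls were 6 higher (11.6% of probes) and 1 lower (9.11%). Orc1 (4.67), Cdc42ep5, Cenpf, Plk2, Cdc7 and Ccne1 were the 6, and Ccna1 (-3.12) the 1.

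Male lacrimal pool B itself carried the pattern of dividing cells. Its Mki67 level of 11.2 compared with 0.540 to 1.13 in the other 5 lacrimal pools, 9.92 times the next. Cdc20 was 4.99 (9.12 times the next), Top2a 6.36 (8.29 times), Cdk1 8.89 (7.91 times) and Ccnb2 4.34 (5.71 times). For Cdc20 and Cdk1 the pool was above every meibomian pool.

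Replication genes rose there as well. Mcm3 was 4.29 in the pool and 0.431 to 0.817 in the other lacrimal pools, Mcm4 5.94 against 0.643 to 1.14, Mcm7 2.93 against 0.305 to 0.709, and Mcm6 1.40 against 0.233 to 0.347. Of the 21 genes 13 were mitosis, 6 replication and 1 G1 entry, and the other was Plk2 at 9.41 against 0.615 to 2.34. Plk1, the main mitotic polo-like kinase, did not pass the filter in any group, and its highest value on any array (0.790) was in this pool.

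Markers of other tissues in the pool were as follows. Its keratinocyte sum was 2.67 (other lacrimal pools 3.33 to 4.83, meibomian pools 53.8 to 129) and its meibocyte sum 15.8 (11.3 to 16.4 and 385 to 513), so neither stood near the meibomian level. Its serous sum of 385 was below the 528 to 827 of the other lacrimal pools, and its fibroblast sum of 24.2 near their 25.5 to 52.8. Within that list Col1a1 was 3.30 (0.685 to 1.25) and Col1a2 3.08 (0.597 to 1.22). Its lymphocyte sum of 20.9 lay within the 12.5 to 59.0 of the other lacrimal pools. Among those markers Ptprc was 1.29 (0.237 to 0.618), Cd79b 1.33 (0.382 to 0.537) and Ms4a1 0.698 (-0.0614 to 0.401). Cd79a, Cd2, Cd3d, Cd3e and Cd3g lay within the range of the other lacrimal pools. Its plasma cell sum of 89.9 lay within the 70.5 to 120 of the other lacrimal pools: Jchain, the antibody joining chain, was 52.8 (0.760 to 23.4), while Xbp1 was 35.9 (61.6 to 112) and Ighm 0.238 (0.560 to 0.807). Their part in the pool's levels was not tested.

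The submandibular gland had 2 genes higher, where 5.69% of probes were, and 2 lower, where 6.60% were. Cdk18 was 6.74, 9.85 and 4.11 in female and 4.94, 5.25 and 3.64 in male pools, against 0.185 to 5.59 on the other arrays (difference 2.24 ± 0.26, at least 4.51-fold). The range overlapped with female lacrimal pool C, male lacrimal pool C and female sublingual pool A. Cdk2ap2 was 130.1, 41.3 and 82.9 in female and 93.8, 76.3 and 80.0 in male pools against 7.78 to 53.1 elsewhere, 3.25-fold higher (1.70 ± 0.19). No gene had all 6 submandibular pools above every other array (1.11% of probes did) or below (0.292%). Both Cdk18 and Cdk2ap2 differed from the gland next in order, the lacrimal for Cdk18 (adjusted p = 0.027) and the parotid for Cdk2ap2 (adjusted p = 0.0169).

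Mcm6 (-1.09 ± 0.30, adjusted p = 0.00813) and Orc1 (-1.15 ± 0.41, adjusted p = 0.0419) were called lower there, from dim levels. Mcm6 lost its call without female submandibular pool B (-0.85), male parotid pool B (-0.998) or male lacrimal pool B (-0.99). Orc1 lost it in 23 of its alternatives, 16 of them leaving out 1 array, among them female submandibular pools B and C and all 3 male submandibular pools, with differences of -1.22 to -0.88 and adjusted p-values of 0.0505 to 0.151. The count of 4 became 2 without female submandibular pool B or male parotid pool B and 7 without female sublingual pool A.

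The sublingual gland had 1 gene higher, where 5.87% of probes were, and 1 lower, where 5.25% were. Ccna1 was higher (1.76 ± 0.27, adjusted p = 6.96e-05, at least 3.21-fold). Cenpf, a kinetochore protein, was lower (-1.10 ± 0.23, adjusted p = 0.00136; its male parotid pool A spot was missing), and was at -0.86 without male sublingual pool A. Cenpc1 was 1.06 to 1.15 in sublingual pools and at least 1.55 on every other array, the 1 gene with no overlap below (0.256% of probes), without reaching a call, and no gene had all sublingual pools above (1.14%).

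The sublingual count of 2 was small and moved with the setting. With the pool letter as a block it was 5: Ccna1 higher, where 6.05% of probes were, and Cdc25b (-1.02), Cenpf (-1.17), Orc1 (-1.54) and Top2a (-1.18) lower, where 5.47% were. It was 4 without female submandibular pool C, female lacrimal pool C, male lacrimal pool A or male lacrimal pool C, and 1 without male parotid pool B. With the meibomian gland left out of the mean no gene was higher, where 4.60% of probes were, and Cdk2ap2 (-1.06) was lower, where 4.06% were. In that comparison the difference of Ccna1 was 0.85 (adjusted p = 0.0424).

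The sexes differed in the lacrimal gland. In males 4 genes were higher and none lower, where 2.90% and 2.51% of all probes were, at an adjusted p under 0.05 in limma. They were Cdc45, Tyms, Cenpa and Cenpf. In none of the 4 did the male and female pools overlap. The share of all probes separated in this way is not given here, and with 3 pools a sex it need not be small.

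Cdc45, the helicase factor that fires replication origins, was 0.174, 0.586 and 0.318 in female lacrimal pools A, B and C and 3.92, 3.57 and 1.88 in the male ones. Each male pool lay above every array of the other glands (0.306 to 1.17). The level was 9.33-fold higher in males (difference 3.22 ± 0.41, adjusted p = 2.18e-05). In the other glands the male minus female difference was -0.22 to 0.59, with adjusted p-values of 0.770 or more.

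Tyms, which makes thymidylate for DNA, was 2.95, 1.19 and 1.43 in females and 14.4, 7.95 and 6.81 in males. Again the male pools lay above all arrays of the other glands (1.98 to 5.86), while female pools B and C lay below them all. The difference was 2.43 ± 0.37, or 5.39-fold (adjusted p = 0.000189). In the other glands it was -0.43 to 0.19. A moderated F test of whether the sex difference differed among the glands called 2 of the 79 genes, Cdc45 (adjusted p = 0.00595) and Tyms (adjusted p = 0.0114), where 2.66% of probes were called.

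Cenpa was 3.02, 0.497 and 1.26 in females and 6.09, 9.14 and 3.499 in males (2.23 ± 0.48, adjusted p = 0.00561). Cenpf was 1.89, 1.77 and 0.886 in females and 5.16, 3.90 and 2.29 in males (1.32 ± 0.34, adjusted p = 0.0232). For Cenpa, female pools B and C lay below the range of the other glands (1.49 to 5.01) and male pools A and B above it. For Cenpf, male pool C lay within their range (0.420 to 2.39), and so did all 3 female pools.

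**Figure D5:**
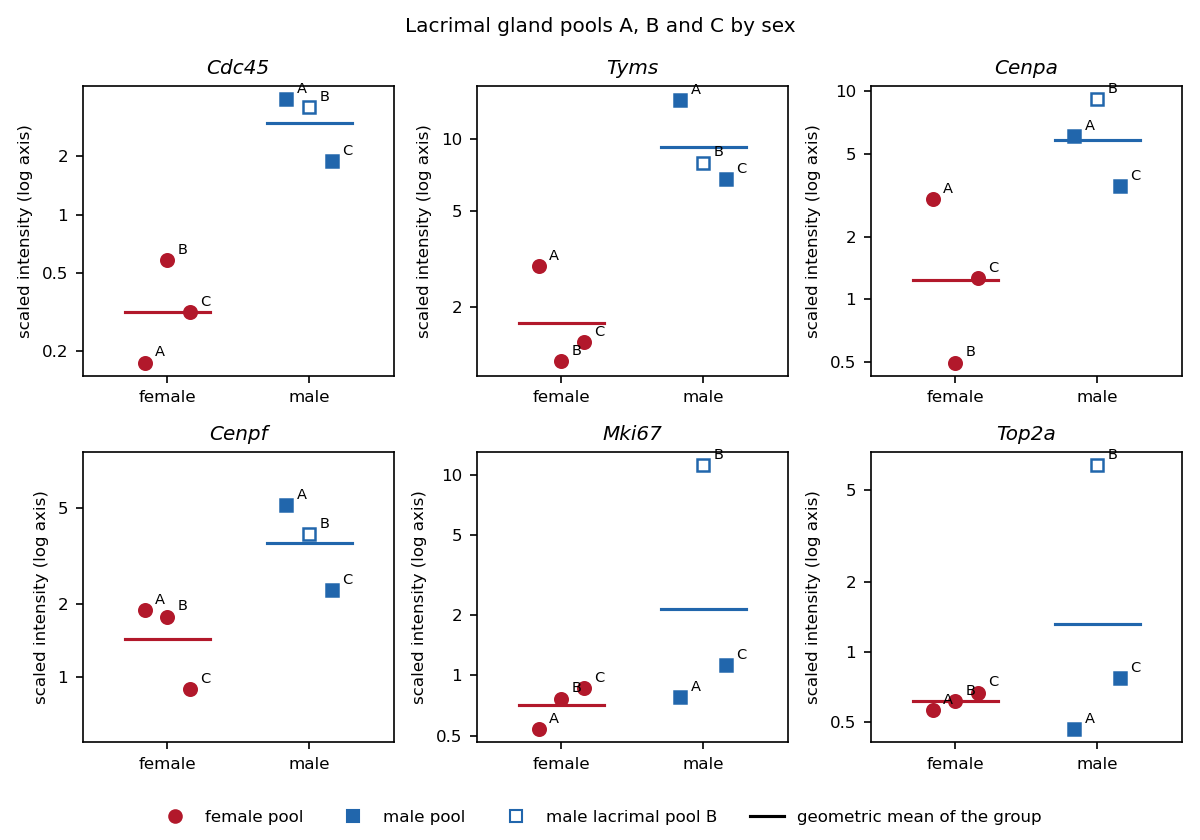
Scaled intensity on a log axis in the 3 female and 3 male lacrimal pools for genes called between the sexes and for genes of dividing cells, 1 point a pool. For Cdc45 the female pools lie at 0.174 to 0.586 and the male pools at 1.88 to 3.92, whereas the male Mki67 values are set apart by pool B at 11.2.

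Genes of dividing cells did not meet the test between the sexes. Mki67 had a male minus female difference of 1.59 (adjusted p = 0.163), Cdk1 1.33 (0.232) and Top2a 1.10 (0.436), each resting on male pool B. Without that pool the differences were 0.40, 0.31 and -0.03. The median over the mitosis genes was 0.932 with the pool and 0.332 without it, and over the replication genes 0.607 and 0.147.

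Cdc45 and Tyms did not rest on it: without male pool B they differed by 3.09 (adjusted p = 0.000201) and 2.54 (adjusted p = 0.000565). Cenpa kept its call (1.90, adjusted p = 0.0361), Cenpf lost it (1.26, adjusted p = 0.0673), and Plk2 was called lower in males (-1.31, adjusted p = 0.00414). In that fit 3.17% of probes were higher and 2.11% lower. In array set 2 alone Cdc45 (3.53, adjusted p = 0.000726) and Tyms (2.27, adjusted p = 0.0205) were higher, where 2.23% of probes were, and Plk2 (-1.46) lower, where 1.79% were, while Cenpa was at 1.24 (adjusted p = 0.152).

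Pairing the pools by letter raised the count from 4 to 12, 10 higher (6.21% of probes) and 2 lower (7.31%). Ccna2 (1.35), Mcm4 (1.81, with pair A left out for a missing female spot), Mcm5 (1.30), Mcm7 (1.31), Orc2 (0.69) and Rrm2 (0.99) joined the 4, and Cdc42se1 (-0.74) and Cenpx (-1.17) were lower. The count was 9 without male lacrimal pool A and 7 without male pool C. Cenpf was also lost without female pool C (0.97, adjusted p = 0.131) or male pool A (1.06, adjusted p = 0.105). Fitted on the 6 lacrimal arrays alone, Cdc45 was the 1 gene called (adjusted p = 0.026), with Tyms at 0.0576.

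Of the 75 tested cell cycle genes outside the symbol rule, 4 were higher in the male lacrimal gland and 1 lower, where 2.90% and 2.51% of all probes were. Of the 4, 3 were among the 26 replication genes and 1 among the 9 Rb and E2F genes. Geminin (Gmnn), which holds back origin licensing, was 1.14, 0.720 and 0.693 in females and 3.44, 3.84 and 2.06 in males (1.86, adjusted p = 0.00113). Rpa1, which coats single-stranded DNA, was 1.07, 1.03 and 1.01 against 6.77, 2.43 and 2.66 (1.77, adjusted p = 0.000291). Rbl1, a relative of the retinoblastoma protein, was 0.598, 0.953 and 1.18 against 4.91, 3.26 and 2.41 (1.95, adjusted p = 4.85e-05). The sexes did not overlap in any of these 3, again without a share over all probes to set beside it. The replication gene Gins2 was also higher (1.83, adjusted p = 0.0488), with overlap. Its probe was low, at 0.0736, 0.0998 and 0.371 in females and 0.311, 0.984 and 0.403 in males, with male pool B the highest. Another Gins2 probe did not pass the filter. The checkpoint gene Mdm2, which restrains p53, was lower (-1.03, adjusted p = 0.0123).

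In the lacrimal gland, summed lymphocyte markers were 12.5 to 29.6 in female and 20.9 to 59.0 in male pools, serous and duct markers 528 to 827 and 385 to 752, and keratinocyte markers 3.33 to 4.83 and 2.67 to 4.31. The sums overlapped between the sexes in these and in all other lists but plasma cells, which summed to 90.5 to 120 in female and 70.5 to 89.9 in male pools. Of the 4 plasma cell markers Xbp1 was lower in males (-0.95, adjusted p = 0.0469), Jchain higher (2.89, adjusted p = 0.0314), and Ighm (-0.50) and Pou2af1 (-0.04) were not called. Their part in the sex difference was not tested.

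No gene was called between the sexes in the submandibular, sublingual, parotid or meibomian gland. In the submandibular gland 1.92% of probes were higher in males and 0.670% lower, and 1 of the genes here was higher and 1 lower at an unadjusted p under 0.05. In the sublingual gland 0.0853% and 0.122% of probes were called, with 0 and 1 genes at the unadjusted level, and in the parotid gland 0.0244% and 0.00%, with 1 and 0. In the meibomian gland, highest of the glands for 19 of 26 mitosis genes, 0.0365% and 0.00% of probes were called. No gene passed the unadjusted level, which 10 and 9 probes of the whole array did (0.231%). The spread of each probe was shared over all glands. Between meibomian pools the median SD of all probes was 0.230 in females and 0.226 in males, against 0.423 and 0.514 between lacrimal pools. The shared spread thus made this test strict, and its empty result does not show that the sexes are alike. Mki67 there was 11.6, 8.93 and 7.99 in females and 11.4, 10.9 and 11.3 in males.

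Averaged across the 5 glands, no gene was called either, where 0.877% of probes were higher in males and 0.390% lower, and 4 and 1 passed at the unadjusted level. With the pool letter as a block, Cdk2ap1 was lower in the male submandibular gland (3.15% of probes were), and Cdc45 and Tyms were higher in males when the 5 glands were averaged (2.38%). The sublingual count was 1 without female sublingual pool B. The mean count was 1 without female submandibular pool C, male submandibular pool B, female parotid pool B, female lacrimal pool B or male lacrimal pool C. Gadd45a, a DNA damage response gene outside the rule, was higher in the male submandibular gland (2.93, adjusted p = 3.87e-05).

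A further 10 genes did not pass the filter in any group and have no call in the tested set. Their highest values on any array were 0.823 (Cdc26), 0.790 (Plk1), 0.771 (Ccnd1), 0.553 (Bub1), 0.539 (Cdk20), 0.512 (Cenpp), 0.455 (Cdk11b), 0.436 (Rrm1), 0.435 (Mcm8) and 0.398 (Cdk5r1). Spots of Cdk5r1 and Cenpp were also missing on some arrays. Cyclin D1, the most studied D-type cyclin, Plk1, Bub1 and Rrm1 are therefore not described by gland, and their low signal does not show that the genes were silent.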

How the data were processed

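Each of the 26 arrays has a column of linear intensities over 10500 probes in the deposited table; for the scanner, background method and normalization, not given in the sources used here, nothing is assumed, and scaling within the array and background subtraction were read from the values. A value of exactly -1 was taken as a missing spot (2241 cells, 0.821%; 21 cells of 8 of the 89 genes), since the next lowest value was -0.699. Genes were named from the platform's probe annotation, and all 89 matched RefSeq by Entrez ID with the same symbol; sequences came from RefSeq, GRCm38.p6.

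From these values, intensities were floored at 0.0234 (the 1st percentile of positive values) and put on a log2 scale; no deposited value was log2. The filter asked that all arrays of some group (10 groups of sex and gland) be at or above their own 30th percentile (0.281 to 0.561), and 8211 probes passed. limma 3.58.1 in R 4.3.3 (lmFit, eBayes) fitted the 10 group means over all 26 arrays, and p-values were adjusted by Benjamini-Hochberg over all kept probes within a comparison. Gland calls needed an adjusted p under 0.05 and a log2 difference of 1, sex calls the adjusted p alone. Unequal sex differences among glands were tested with a moderated F test. The bound on a fold took, for the dim group, the higher on each array of the 30th percentile and the probe's own value. The number of arrays, 2 or 3 a group, limits the precision. Scripts were tested on simulated data.

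The array sets were defined by the sign of the first principal component of deviations from the group means (38.1% of their squares). Pool letters were used to pair the sexes. Over 7555 probes, same-letter male and female arrays of a gland had deviations correlated at 0.441 to 0.816, and each of the 9 pairs was the best match of its gland. Same-letter arrays of a gland also shared an array set, and the sets were defined from the same deviations. The match can therefore follow from the sets and does not show that the pools themselves were paired. The pairing comes from the data, since the labels state separate pools and do not say what a letter shares.

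Genes named were a list of 35 well-known members, up to 5 called members a direction and gland, up to 6 a direction and gland called between the sexes, and up to 3 a direction and gland among genes outside the rule; others named were chosen after their values were seen. The members and all lists were chosen with earlier results of these data known. Alternatives were no filter or a 50th percentile filter, a 5th percentile floor, log2(value + 0.25), quantile normalization, missing spots at the floor, the pool letter as a replicate block, each sex, gland or array set alone, and each array left out. The array set as a term and the meibomian gland left out of the mean were added after seeing the data.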

Additional observations from a re-analysis of the deposited data

Results flagged for a closer look

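For 2 genes the difference between males and females was itself different from gland to gland, by limma's moderated F test of the 4 interaction terms: Cdc45 (adjusted p = 0.00595) and Tyms (adjusted p = 0.0114). In both, males were higher in the lacrimal gland, in 3 of 3 pools against every female pool, and no call was made between the sexes in the other glands. The share of all probes with such a separation of pools is not given here. The F test called 218 of 8210 probes (2.66%).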

How the results depend on the processing

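Over all comparisons and alternatives, 405 counts of called genes stayed within 1.5 times the reported one and 40 did not, and of the values of named genes 1172 kept direction and call, 87 lost the call and 1 reversed (Mki67 in the lacrimal gland, 0.24 in array set 1 alone). The sublingual count of 2 was 1 with log2(value + 0.25), missing spots at the floor, female arrays alone, array set 1 alone or the meibomian gland left out, 4 with the array set as a term and 5 with the replicate block. The parotid count of 12 was 7 in female arrays alone and 6 with the meibomian gland left out. The lacrimal count of 8 was 3 with log2(value + 0.25) and 5 after quantile normalization. Between the sexes the lacrimal count of 4 was 9 after quantile normalization, 12 with the replicate block and 1 on the gland's own arrays. The submandibular count of 0 was 1 with the replicate block. The count of 0 over the mean of the glands was 2 with the replicate block and 1 with the 50th percentile filter, log2(value + 0.25) or the array set as a term. The count of 2 for the F test was 5 with the replicate block and 1 in array set 2 alone (without female lacrimal pool B or male lacrimal pool A it was 1). The causes were not tested. Leaving out 1 array at a time, counts ran from 25 to 28 (meibomian), 9 to 13 (parotid), 6 to 13 (lacrimal), 2 to 7 (submandibular) and 1 to 4 (sublingual) between glands. Between the sexes they ran from 4 to 9 (lacrimal), 0 to 1 (sublingual), 0 to 0 (submandibular, parotid and meibomian), 0 to 1 (mean of glands) and 1 to 3 (F test). The replicate block moved no other count by over 1.5 times. Genes near background, such as Aurkb, Mcm2 and Cdk6, were compared with groups that were partly dim in the meibomian test, and of these genes Cdk6 alone had a bound above 1, at least 1.18-fold.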
